A study of Homo sapiens with 6 samples.

Results

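The regions described here are the CpG-sparse entries of 3 lists of differentially methylated regions, from HepG2 cells with and without DNMT3A overexpression. A listed region counts as sparse when it holds fewer than 5 listed CpG sites per 100 bp, whatever its direction. Of 4344 listed regions 205 met this rule, 4.72% of the total: 67 in pair 1, 71 in pair 2 and 67 in pair 3. The rule used the number of sites and the length of a region, not its methylation level. The remaining 4139 regions, with 5 or more sites per 100 bp, served for comparison.

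HepG2 is an established human hepatocellular carcinoma line, labelled wild type in the control group and DNMT3A overexpression in the other. Both groups had been infected with lentivirus, a control virus or one that overexpresses DNMT3A. Each group had 3 libraries made by reduced representation bisulfite sequencing (RRBS), and each list compares the overexpressing and control libraries that carry 1 number. The labels name neither the promoter of the transgene nor separate cultures, clones or a time after infection, so p-values reflect the spread among these libraries alone, and that spread may be technical. The lists hold no expression values, so the line could not be checked by marker expression. Mapped reads per library ranged from 25764323 to 29924507. The depth behind each level is unknown, as the lists hold no coverage.

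DNMT3A is a de novo DNA methyltransferase, which adds methyl groups to cytosines of CpG dinucleotides that carried none. CpG dinucleotides are rare over most of the human genome, where they are mostly methylated, and crowded in CpG islands, which are mostly unmethylated. RRBS cuts DNA at the MspI site CCGG and reads the short fragments that result, so it favours CpG-rich DNA. A listed CpG site therefore stands for what was read, and a long region can span stretches from which no site was listed.

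What a site means in these lists was checked against RefSeq promoter windows (GRCh38.p14), which run from 250 bases before to 50 after a gene start. All 113 listed regions that lay wholly inside a window began and ended on a CpG. In 109 of them the list counted more sites than the window has CpG dinucleotides, and in 0 of them more than the cytosines of both strands. The lists thus count the cytosines of both strands separately. The list named every such cytosine in 71 of the 113 regions, and 38.1% of them in the lowest. Only 1 of the 113 was sparse.

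The following stretches give the sequence of the sparse regions that promoter windows reach. They are the parts of 4 sparse regions that fall within the 250 bases before a RefSeq gene start (GRCh38.p14, plus strand, 5′ to 3′, CpG dinucleotides in capitals). A further stretch before ZNF558 (chr19:8832424-8832554) is not printed. It holds 8 CpG dinucleotides in 131 bases, 6.11 per 100 bases, while the list counts 7 sites in the whole region of 141 bp.
CELF4 chr18:37485882-37486027: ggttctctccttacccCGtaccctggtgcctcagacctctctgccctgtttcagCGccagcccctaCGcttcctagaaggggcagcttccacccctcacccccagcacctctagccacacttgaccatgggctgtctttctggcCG
MXRA7 chr17:76688730-76688963: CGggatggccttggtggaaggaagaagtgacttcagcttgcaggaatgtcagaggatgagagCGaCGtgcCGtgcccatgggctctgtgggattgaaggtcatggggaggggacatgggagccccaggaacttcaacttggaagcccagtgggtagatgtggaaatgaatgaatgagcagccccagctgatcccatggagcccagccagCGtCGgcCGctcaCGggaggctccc
LOC102723324 chr9:121369643-121369738: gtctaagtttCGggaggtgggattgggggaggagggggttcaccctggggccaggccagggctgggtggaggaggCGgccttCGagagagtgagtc
LOC124904948 chr20:62635915-62636164: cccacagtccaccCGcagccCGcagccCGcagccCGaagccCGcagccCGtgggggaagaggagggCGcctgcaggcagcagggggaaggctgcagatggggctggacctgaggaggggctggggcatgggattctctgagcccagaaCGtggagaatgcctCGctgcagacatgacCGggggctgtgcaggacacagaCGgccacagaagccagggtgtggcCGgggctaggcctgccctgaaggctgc

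The CELF4 stretch is a whole sparse region and holds 4 CpG dinucleotides in 146 bases, 2.74 per 100 bases, against a median of 4.67 over the 35116 promoter windows. Its boundaries take in 9 CpG cytosines of both strands, of which the list counted 5. The MXRA7 stretch holds 8 in 234 bases, with a CpG-free run of 137 bases between its first and last groups of CpG dinucleotides. The stretch of the noncoding gene LOC102723324 holds 3 CpG dinucleotides in 96 bases. That of the noncoding gene LOC124904948 holds 12 in 250 bases, so this stretch is close to the promoter median. The unprinted ZNF558 stretch lies above that median.

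The regions behind these stretches went both ways. CELF4 encodes an RNA-binding protein, and its region stood at 0.559 in control library 3 and 0.0861 in overexpressing library 3. The region of MXRA7, chr17:76688730-76688985, stood at 0.646 and 0.0373 in the same libraries. Beside LOC102723324 and inside STOM, the gene of the membrane protein stomatin, the region chr9:121369525-121369738 stood at 0.0364 in control library 2 and 0.478 in overexpressing library 2. The region of LOC124904948, chr20:62635852-62636170, stood at 0.215 in control library 1 and 0.628 in overexpressing library 1. Each of the 4 was listed in 1 pair only. The CELF4 and MXRA7 regions lie inside the genes, over 1 kb from the outer ends that RefSeq gives. The starts used for their windows therefore lie inside the gene extents and are not the outer ends. Exons and introns were not analysed here.

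Sparse regions were of 2 kinds by length. Short ones with few sites made up most of them: 143 of the 205 were under 200 bp, with a median of 5 sites, and 135 (65.9%) held 4 to 6 sites, against 14.7% of the denser regions. Another 40 measured from 200 to under 1000 bp, with a median of 10 sites. The remaining 22 were of 1000 bp or more, up to 5025 bp. Every listed region of 1000 bp or more was sparse, and the longest denser region measured 969 bp.

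Long and short sparse regions differed in direction. Of the 22 long ones all 22 were higher in the overexpressing library. Of those from 200 to under 1000 bp 33 of 40 were (82.5%), and of the short ones 107 of 143 (74.8%). Denser regions of the latter lengths gave 89.1% and 80.9%. These counts pool the lists, so 1 place can count more than once. The 22, 40 and 143 entries fall in 17, 37 and 138 distinct regions. In the 17 sparse regions with 20 or more sites and the 18 with 11 to 19 all were higher, against 76.5% and 85.6% of denser regions. With 4 sites, 44 of 64 were (68.8%), close to the 71.1% of denser regions with 4 sites.

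**Figure D1:**
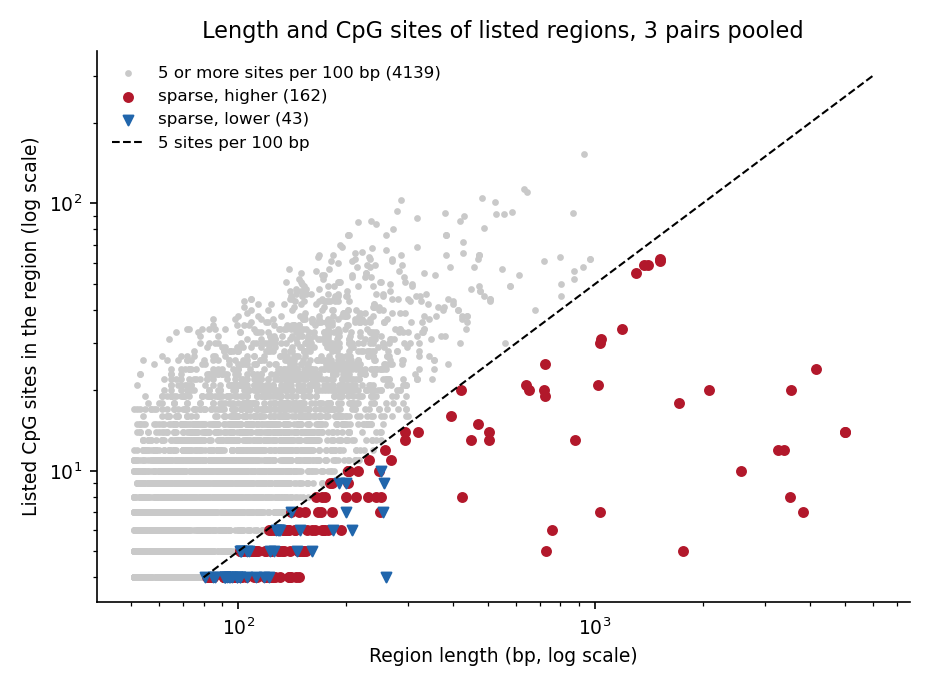
Each point is a listed region, with its length in bp against its number of listed CpG sites, both on log scales and pooled over 3 pairs. The 205 sparse regions lie under the dashed line of 5 sites per 100 bp, and those of 1000 bp or more are all higher with DNMT3A.

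Regions next to the threshold went both ways on either side of it. Just under it were a region in MTG2 of pair 3 (4.97 sites per 100 bp, chr20:62185890-62186070, 0.177 without and 0.493 with DNMT3A), an intergenic one of pair 1 (4.96, chr17:17459642-17459782, 0.348 and 0.762) and one of pair 2 in MBD3L1 and ZNF558 (4.96, chr19:8832424-8832564, 0.556 and 0.319). At 5 sites per 100 bp, just outside, were regions in MEGF6 (pair 2, chr1:3565185-3565264, 0.577 and 0.0953) and ASIC2 (pair 3, chr17:34126806-34126905, 0.594 and 0.0267), and an intergenic one (pair 2, chr6:41756421-41756560, 0.204 and 0.569).

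The first comparison asked in which direction sparse regions differed. Most were higher with DNMT3A, 162 against 43 lower, but the share varied between pairs. In pair 1, 62 of 67 sparse regions were higher (92.5%, 95% exact binomial interval 83.4 to 97.5), in pair 2, 54 of 71 (76.1%, 64.5 to 85.4), and in pair 3, 46 of 67 (68.7%, 56.2 to 79.4). The intervals cover the counting of regions only and treat the regions of a list as independent, though these share the same libraries. The intervals therefore do not test whether the pairs differ. Denser regions gave 81.6%, 82.0% and 81.7% in the 3 pairs. The share of sparse regions averaged 79.1% ± 12.2 and that of denser regions 81.8% ± 0.227 (SD, n = 3 pairs).

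Sparse minus denser, the share differed by 10.97, -5.96 and -13.0 percentage points in pairs 1, 2 and 3, a mean of -2.68 ± 12.3 (exact two-sided sign-flip permutation test, p = 0.75, adjusted p = 0.75 over 7 comparisons; SD, n = 3 pairs). With 3 pairs this test cannot give a p under 0.25. The mean turned positive without pair 3 (2.51), with regions of at least 6 sites (3.66) and with a threshold of 4 sites per 100 bp (0.677).

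**Figure D2:**
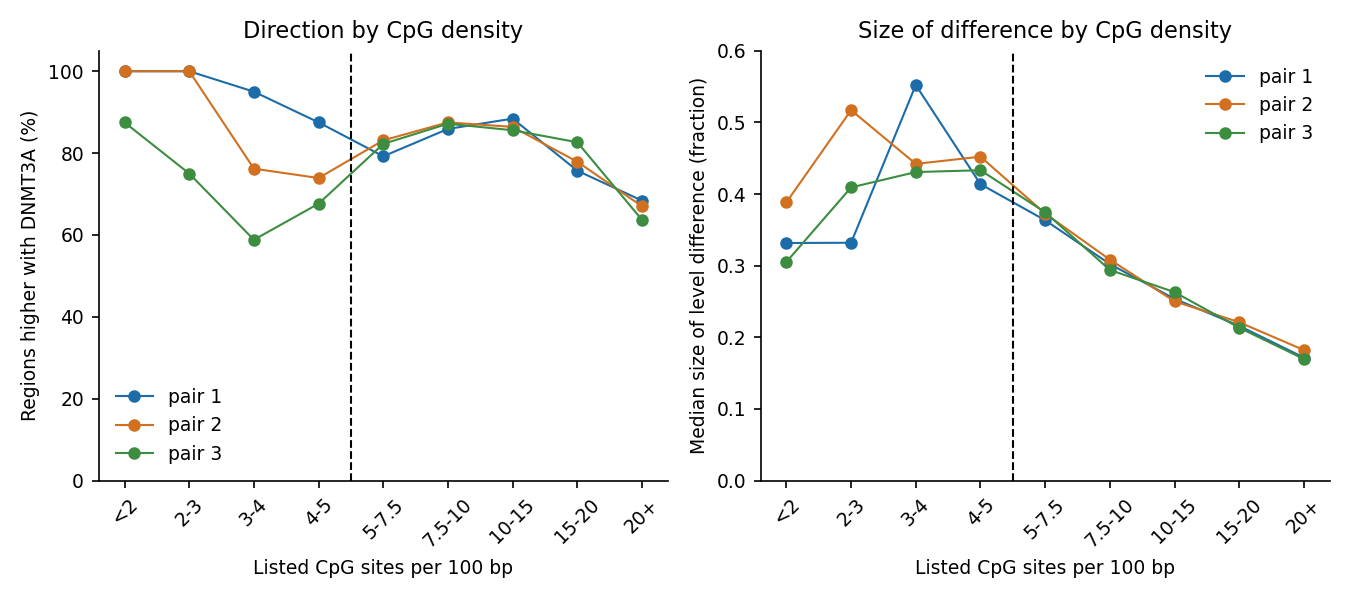
The left panel plots the share of listed regions that were higher with DNMT3A and the right panel the median size of the level difference, by listed CpG sites per 100 bp, with 1 line per pair. The pairs lie close together above 5 sites per 100 bp (dashed line) and spread below it, where the 2 lowest classes hold only 18 and 17 regions over all pairs.

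Levels at sparse gains went from low to above the middle of the scale. Control libraries 1, 2 and 3 had medians of 0.138, 0.122 and 0.167 there, where denser gains had 0.190, 0.1996 and 0.212. In the overexpressing libraries the medians of sparse gains were 0.614, 0.576 and 0.561, against 0.498, 0.502 and 0.522. Of the 162 sparse gains 55 started under 0.1, 107 ended above 0.5, 22 above 0.8 and 7 above 0.9. The median control level of gains was lower at sparse than at denser regions in 3 of 3 pairs, by a mean of -0.0583 ± 0.0170 (SD, n = 3; exact sign-flip permutation p = 0.25, adjusted p = 0.35), the smallest p that 3 pairs allow. Among denser gains this level also moved with the number of sites, from 0.154 with 4 sites to 0.216 with 20 or more. Among sparse gains it was 0.127 and 0.128. With 4 to 6 sites in both sets, a comparison chosen after seeing the data, the mean difference was -0.0531. What part of the difference comes from the number of sites was not tested.

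Losses at sparse regions started high. Their median control level was 0.731, 0.849 and 0.636 in pairs 1, 2 and 3, against 0.585, 0.593 and 0.544 at denser losses, and their median overexpressing level 0.407, 0.290 and 0.118. Of the 43 sparse losses 37 started above 0.5 and 14 above 0.9, and 13 ended under 0.1. They were short, from 81 to 260 bp, and 36 of them held 4 to 6 sites.

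**Figure D3:**
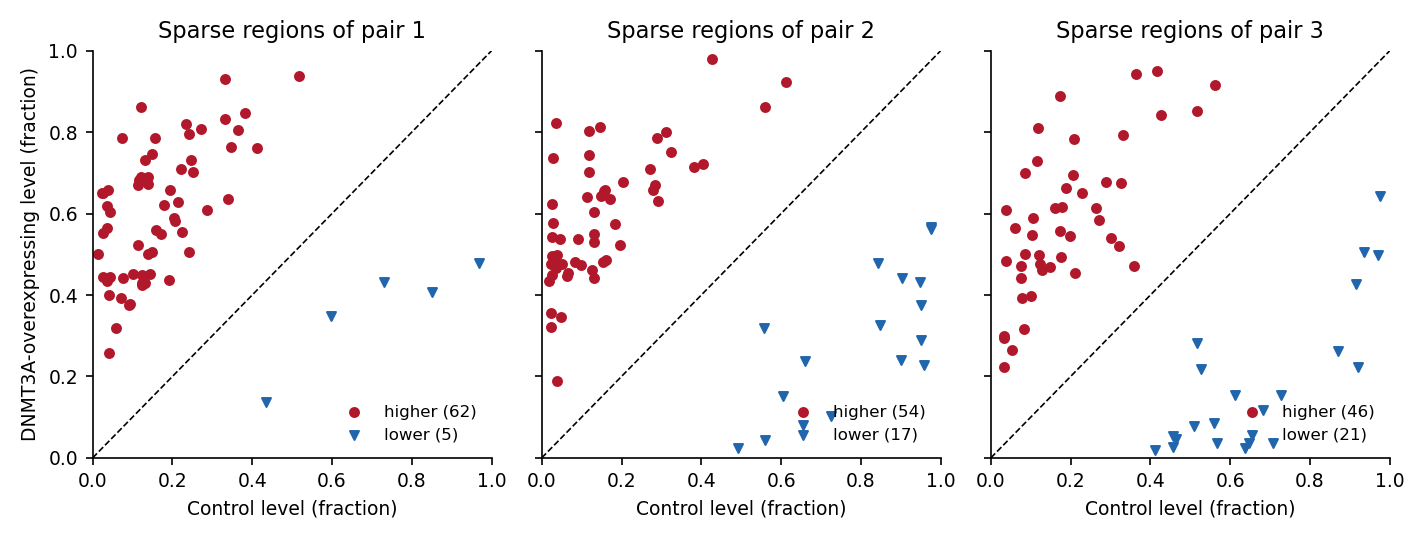
Each point is a sparse region, with the control level on the x axis and the DNMT3A-overexpressing level on the y axis, both as fractions, in 1 panel per pair. Gains gather at low control levels and losses at high ones, and the count of losses was 5, 17 and 21 in pairs 1, 2 and 3.

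Differences were larger at sparse than at denser regions. The median size of the difference was 0.419, 0.448 and 0.418 at sparse regions of pairs 1, 2 and 3, against 0.260, 0.262 and 0.261 at denser ones. The excess averaged 0.167 ± 0.0164 (SD, n = 3; larger in 3 of 3 pairs; exact sign-flip permutation p = 0.25, adjusted p = 0.35). Number of sites moved with this result: among denser regions the median size was 0.433 with 4 sites and 0.216 with 20 or more, and among sparse ones 0.487 and 0.307. With 4 to 6 sites in both sets, a comparison chosen after seeing the data, the excess was 0.0946. The sources used here do not give the caller's thresholds, and what part of the excess comes from the number of sites needed for a call was not tested.

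Whether a sparse region was listed again in another pair was asked next. In pairs 1, 2 and 3, 19 of 67, 17 of 71 and 21 of 67 sparse regions met a region of the same direction in another list, 28.4%, 23.9% and 31.3%. For denser regions the shares were 38.6%, 38.6% and 37.6%. The difference averaged -10.4 percentage points ± 4.20 (SD, n = 3; lower in 3 of 3 pairs; exact sign-flip permutation p = 0.25, adjusted p = 0.35). Restricted to regions of at least 6 sites it turned to 8.92, higher in 3 of 3 pairs. With a threshold of 4 sites per 100 bp it was -1.56, and with the shortest and longest regions left out of both sets -29.7.

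Recurrence differed by length and direction. Of the 22 sparse regions of 1000 bp or more 18 were met again, of those from 200 to under 1000 bp 19 of 40 (47.5%), and of those under 200 bp 20 of 143 (13.99%). Denser regions of the latter lengths gave 71.3% and 34.3%. A longer region also has more room to be met. Among sparse gains 55 of 162 were met by another gain, and among sparse losses 2 of 43 by another loss, 33.95% and 4.65%. Denser regions gave 44.6% and 10.1%, so gains were met more often than losses in both sets. The lists also hold more gains than losses, 162 and 43 among sparse regions and 3384 and 755 among denser ones. A gain thus had more regions of its own direction to meet. Of the 57 sparse regions that met any region of another list, 25 met only denser ones, so the same place can be sparse in 1 list and denser in another.

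Chains of overlapping regions were merged, which gave 188 distinct regions with at least 1 sparse entry. Of these 148 were listed in 1 pair (107 higher, 41 lower), 19 in 2 pairs (17 higher, 2 lower) and 21 in all 3 pairs. These are 78.7%, 10.1% and 11.2%, against 78.1%, 13.8% and 8.03% of the distinct regions without a sparse entry. A merged region counts here with 1 sparse entry among several, so these shares do not show the lower recurrence of single entries. Among the 21 20 were higher in every pair and 1, in the HOXA cluster, went in opposite directions. Levels of such a region in a pair are means weighted by sites where the pair lists several entries. Part of the spread between libraries can come from boundaries that differ among the lists.

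For the 21 regions with levels in all 6 libraries the groups were compared with limma on the logit scale, fitted over all 272 regions listed in every pair. By this test 20 of the 21 rose, 0 fell and 1 did not pass at an adjusted p under 0.05. Over all 272 regions 96.0% were called higher and 0.735% lower. The share among sparse regions is near this background and so says nothing particular about them. At an unadjusted p under 0.05 the count of sparse regions called lower was also 0. A block for the replicate number gave 20 higher and 0 lower, against 97.1% higher over all 272. Every overexpressing library lay above every control at 20 of the 21 regions, against 95.6% of all 272. All had been called in each pair, and the test therefore adds no independent evidence of a change.

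At the 20 sparse regions higher in every pair the mean control level had a median of 0.152 and the mean overexpressing level one of 0.486, with a median difference of 0.311. At all 264 regions higher in every pair these values were 0.148, 0.459 and 0.280. The median SD between control libraries was 0.0452 at the sparse ones and 0.0216 at all 264. For most of the sparse ones the boundaries differ among the lists, which can add to this spread. At the regions that were sparse in every list, SEC14L1 and IGF1R, the control SD was 0.0207 and 0.00401. The source of the wider spread was not tested.

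Only 2 of the 21 were sparse in every list. The region in SEC14L1, which encodes a lipid-binding SEC14-domain protein, has the same boundaries in all 3 lists (chr17:77121519-77121652, 6 sites, 4.48 per 100 bp). It stood at 0.144, 0.162 and 0.121 in control libraries 1, 2 and 3 and at 0.451, 0.485 and 0.498 in the overexpressing libraries. The groups do not overlap, and the level rose by 0.336 ± 0.0366 (SD, n = 3; limma adjusted p = 1.47e-05).

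The other is a long region inside IGF1R, the gene of the insulin-like growth factor receptor, close to where the noncoding gene LOC124903561 ends (chr15:98851112-98852551, 59, 59 and 55 sites). Its levels were 0.0411, 0.0382 and 0.0332 in the controls and 0.257, 0.189 and 0.224 with DNMT3A. It rose by 0.186 ± 0.0327 (SD, n = 3; limma adjusted p = 1.41e-05), from the lowest control mean and by the least among the 20 gains.

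PITPNM2, which encodes a phosphatidylinositol transfer protein, held the largest rise among these 21 (chr12:123075837-123075977, gene body). Control libraries 1, 2 and 3 stood at 0.182, 0.290 and 0.216 and the overexpressing libraries at 0.767, 0.632 and 0.651. The difference was 0.453 ± 0.123 (SD, n = 3; limma adjusted p = 6.77e-05). Pair 1 differed most here, with the lowest control and the highest overexpressing level.

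In ANKRD11, the gene of a chromatin regulator, the region chr16:89330219-89330411 stood at 0.0699, 0.139 and 0.114 in the controls and 0.393, 0.468 and 0.577 with DNMT3A. It rose by 0.372 ± 0.0792 (SD, n = 3; limma adjusted p = 0.000106). In NXN, the gene of the redox protein nucleoredoxin, the region chr17:954554-955003 stood at 0.277, 0.354 and 0.228 and at 0.654, 0.658 and 0.651. The 3 overexpressing libraries are nearly equal there, and the region was sparse in pair 3 only.

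AHDC1, the gene of a DNA-binding protein, was sparse in pairs 1 and 2 (chr1:27601906-27602374). Its controls stood at 0.171, 0.130 and 0.166 and its overexpressing libraries at 0.549, 0.529 and 0.460 (limma adjusted p = 2.06e-05). MTG2, the gene of a mitochondrial ribosome GTPase, had the tightest controls but for IGF1R, with 0.173, 0.183 and 0.177 against 0.493, 0.547 and 0.493 (chr20:62185889-62186070, limma adjusted p = 1.41e-05). In SLCO4A1, an organic anion transporter gene, near an end of the noncoding SLCO4A1-AS2 (chr20:62652186-62652983), levels went from 0.216, 0.201 and 0.212 to 0.515, 0.523 and 0.560 (limma adjusted p = 1.44e-05). At all 3 genes the groups lie far apart.

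Of the 12 with the largest mean difference among these 21, 3 had no gene within 1 kb. The one at chr8:6920795-6921188, 3509 bp from DEFA6, a Paneth cell defensin gene, stood at 0.116, 0.148 and 0.103 in the controls and 0.511, 0.462 and 0.549 with DNMT3A. A neighbour that ends 1 base before it, at chr8:6920527-6920794, was higher in pairs 1 and 2, by 0.383 and 0.425. At chr8:102791171-102795320, 30982 bp from AZIN1, controls stood at 0.301, 0.115 and 0.327 and overexpressing libraries at 0.670, 0.444 and 0.674. Library 2 was lowest in both groups, but the lists of pairs 1, 2 and 3 cover 181, 85 and 4150 bp there. Its levels therefore rest on a different stretch. At chr2:43005384-43006485 the levels went from 0.0955, 0.0329 and 0.159 to 0.448, 0.428 and 0.355.

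TPCN1, the gene of an endolysosomal ion channel, also varied by pair (chr12:113245727-113246817). Its controls stood at 0.0302, 0.131 and 0.123 and its overexpressing libraries at 0.291, 0.442 and 0.476 (limma adjusted p = 0.00191). Here too the lists cover different stretches, of 123, 722 and 1035 bp in pairs 1, 2 and 3. In ITPR3, which encodes a calcium release channel of the endoplasmic reticulum, the region chr6:33634390-33636112 lies near an end of ITPR3-AS1. Its controls stood at 0.0931, 0.1004 and 0.359 and its overexpressing libraries at 0.475, 0.530 and 0.472 (limma adjusted p = 0.00641). Control library 3 stands apart, and only in pair 3 was the region sparse, with 1.04 sites per 100 bp against 6.42 in the other pairs. Without pair 2 ITPR3 did not pass (limma adjusted p = 0.0997).

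Among the 8 remaining gains called by limma, PIEZO1, a mechanosensitive channel gene (chr16:88759348-88760866), stood at 0.124, 0.125 and 0.114 in the controls and 0.431, 0.462 and 0.386 with DNMT3A. CACNA1H, a T-type calcium channel gene (chr16:1193073-1194172), went from 0.241, 0.144 and 0.0842 to 0.505, 0.409 and 0.372. The G protein subunit genes GNA11 and GNG7, CYGB, ASB2 and an intergenic region 1398 bp from SPHK1 rose as well, by 0.232 to 0.305. IGF1R completes the 8.

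The HOXA region lies inside HOXA3, HOXA5 and HOXA-AS3, genes of a cluster that patterns the body axis (chr7:27142052-27143212). Controls stood at 0.570, 0.0650 and 0.269 and overexpressing libraries at 0.304, 0.453 and 0.673. It was lower in pair 1 and higher in pairs 2 and 3, and the groups overlap (limma adjusted p = 0.206). The lists cover different stretches here too, of 261, 1034 and 135 bp in pairs 1, 2 and 3. The opposite directions therefore do not rest on the same stretch. Only pair 2 listed the region as sparse, with 7 sites over 1034 bp. Without pair 1, the only pair where it was lower, it passed (limma adjusted p = 0.0169), but pairs 2 and 3 had each listed it as higher. It did not pass without pair 2 (limma adjusted p = 0.703) or without pair 3 (limma adjusted p = 0.520).

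**Figure D4:**
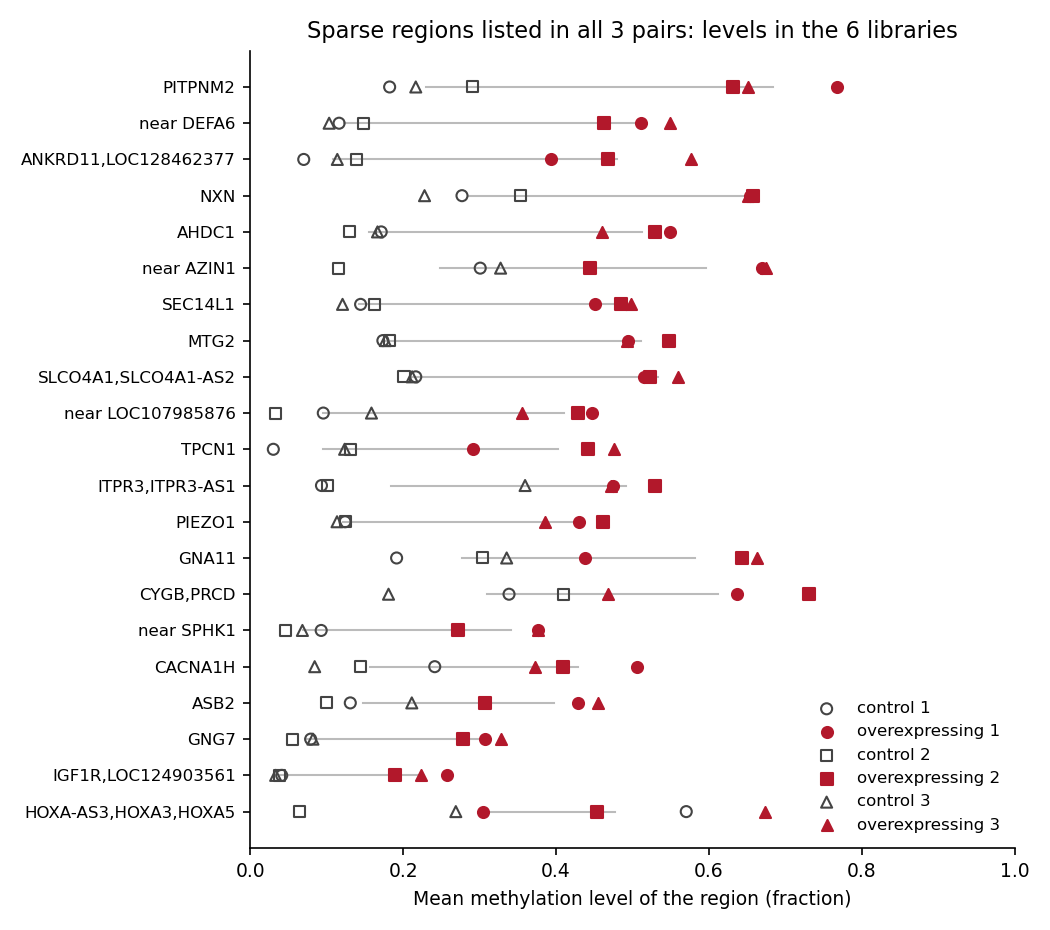
Mean methylation level (fraction) of the 21 sparse regions listed in all 3 pairs, with open symbols for controls, filled ones for overexpressing libraries, 1 symbol shape per pair and a grey line between the group means. Filled symbols lie to the right of all open ones in 20 regions, the HOXA region being the exception.

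Sparse regions listed in 2 pairs have levels in 4 libraries and no test. The largest difference was at chr11:126185604-126185722, 16374 bp from RPUSD4, with 4 sites and the same boundaries in both lists. It stood at 0.0243 and 0.0348 in control libraries 1 and 2 and at 0.650 and 0.823 in the overexpressing libraries. In TTC28 (chr22:28442894-28443072) pairs 1 and 3 went from 0.142 and 0.118 to 0.459 and 0.811, so the 2 pairs differed widely. In MPP3, the gene of a membrane scaffold protein (chr17:43803531-43803954), the same pairs went from 0.204 and 0.187 to 0.589 and 0.662.

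In FGF1, the gene of a fibroblast growth factor, 2 lists gave the same region of 3.45 sites per 100 bp (chr5:142600865-142601038). Control libraries 1 and 2 stood at 0.411 and 0.383, above the controls of the other gains listed in 2 pairs, and the overexpressing libraries at 0.762 and 0.715. Beside FN1, the fibronectin gene, and inside the noncoding FN1-DT, a region stood at 0.0284 and 0.0179 in control libraries 1 and 2 and at 0.242 and 0.436 with DNMT3A (chr2:215436947-215437102). The longest listed region, chr17:17442405-17447429, holds 14 sites in 5025 bp, 29571 bp from MED9, and went from 0.223 and 0.159 to 0.555 and 0.659 in pairs 1 and 2.

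Losses listed in 2 pairs were 2. In the noncoding gene LOC105370982 (chr15:93218174-93218425) control libraries 2 and 3 stood at 0.741 and 0.611 and the overexpressing libraries at 0.355 and 0.155. The region shared by ZNF558, a zinc finger gene, and MBD3L1, a relative of a methyl-CpG binding protein gene (chr19:8832323-8832564), went from 0.515 and 0.556 in control libraries 1 and 2 to 0.262 and 0.319. Both were sparse in 1 of their 2 lists. The lists hold no sparse loss in all 3 pairs.

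Gene bodies held most of the largest gains within 1 pair, as they held 54.9% of all sparse gains. Of these 9 gains 2, those near RPUSD4 and in TTC28, were met in another list, against 33.95% of all sparse gains. With 9 gains, nothing particular to them follows from these shares. In pair 1 the largest gains were SLC39A11, a zinc transporter gene (chr17:73061084-73061217, 0.122 without and 0.861 with DNMT3A), ZDHHC14, a palmitoyltransferase gene (chr6:157514668-157514791, 0.0732 and 0.786), and ABCA12, a lipid transporter gene (chr2:215016309-215016410, 0.156 and 0.786). In pair 2, after the region near RPUSD4, came chr15:63080176-63080278 near TPM1 (0.0290 and 0.736) and the noncoding LOC105377578 (chr4:183088628-183088733, 0.119 and 0.802). In pair 3 ADAMTS2, the gene of a procollagen protease (chr5:179209670-179209918, 0.172 and 0.888), led TTC28 and a region near LOC124902283 (chr9:129479668-129479790, 0.0861 and 0.701). These held 4 to 7 sites each.

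Losses of single pairs were led by ZNF331, a zinc finger gene (chr19:53514811-53514928), in pair 2. It stood at 0.958 in control library 2 and 0.228 in overexpressing library 2. SLC4A8, a bicarbonate transporter gene (chr12:51401079-51401227), stood at 0.901 and 0.240 in the same libraries, and EHMT1, a histone H3 lysine methyltransferase gene (chr9:137709220-137709318), at 0.9499 and 0.290. Each held 4 to 6 sites and was listed in no other pair.

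In pair 3 CCDC88C (chr14:91414881-91414982) stood at 0.920 and 0.223, an intergenic region (chr15:23091755-23091882) at 0.706 and 0.0371, and the noncoding MNX1-AS1 (chr7:157012693-157012946) at 0.636 and 0.0234. Pair 1 lost least: an intergenic region 6541 bp from ZFP1 (chr16:75178775-75178875) stood at 0.969 and 0.479, MEGF6 (chr1:3502909-3503100) at 0.850 and 0.407, and CLEC4G, a lectin gene of sinusoidal endothelium (chr19:7731124-7731204), at 0.731 and 0.433. None of these 6 was met by a loss of another list.

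Among the lowest densities were chr2:120535761-120539578, with 7 sites in 3818 bp at 183958 bp from INHBB (0.123 in control library 1 and 0.450 in overexpressing library 1), and chr4:7806511-7810016 in AFAP1, with 8 sites in 3506 bp (0.207 and 0.581). A region of 5 sites in 1761 bp, 692 bp from SLCO4A1 (chr20:62640051-62641811), stood at 0.138 and 0.502 in the same libraries. Other long ones lay in ASB2, with 20 sites in 3535 bp in pair 1, and at the region near AZIN1, with 24 sites in 4150 bp in pair 3. All were gains with control levels from 0.123 to 0.327.

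Position relative to genes was compared next, using RefSeq gene extents. Of the 205 sparse regions 113 lay inside a gene body (over 1 kb from any gene end), 28 within 1 kb of a gene end and 63 were intergenic, with 1 on an unplaced contig. Sparse regions lay near gene ends less often than denser ones in each pair: 11.9%, 15.5% and 13.4% against 23.4%, 23.9% and 26.1%. The difference averaged -10.8 percentage points ± 2.17 (SD, n = 3; lower in 3 of 3 pairs; exact sign-flip permutation p = 0.25, adjusted p = 0.35). Against only the denser regions of 5 to 10 sites per 100 bp the mean difference was -0.9499, with both directions among the pairs. Intergenic shares were 38.8%, 22.5% and 31.3% against 20.97%, 20.04% and 19.99%, a mean difference of 10.6 ± 7.70 (higher in 3 of 3 pairs; same p). It was 6.30 against the denser regions of 5 to 10 sites per 100 bp and 3.602 with 4 to 6 sites in both sets. The comparisons of gene ends and of intergenic shares, with their alternatives, were all added after seeing the data.

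For gene bodies the difference averaged -0.0472 percentage points ± 6.11 (SD, n = 3; exact sign-flip permutation p = 0.75, adjusted p = 0.75), with 49.3%, 62.0% and 53.7% of sparse regions against 55.4%, 55.9% and 53.9%. By direction, 89 of 162 sparse gains (54.9%) and 24 of 43 sparse losses (55.8%) lay in gene bodies, against 58.7% and 38.8% of denser gains and losses. Near gene ends lay 25 sparse gains (15.4%) and 3 sparse losses (6.98%), against 21.99% and 35.5%. These shares by direction pool the pairs and were not tested.

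Sparse regions lay within 1 kb of 150 genes, of which 7 had 2 distinct ones. NOS3, the endothelial nitric oxide synthase gene, was higher at both: chr7:150993794-150993905 in pair 2 (0.118 and 0.743) and chr7:151001182-151001342 in pair 1 (0.251 and 0.703). GNG7, NXN and SLCO4A1 also had 2 gains each. MEGF6 had 2 losses, at chr1:3502909-3503100 in pair 1 and at chr1:3515344-3515439 in pair 3 (0.972 and 0.497).

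ADAMTS2 and GCNT2 had 1 gain and 1 loss each. In ADAMTS2 both came from pair 3, where chr5:179171286-179171494 stood at 0.566 without and 0.0369 with DNMT3A. In GCNT2, a glycosyltransferase gene, chr6:10532158-10532286 was higher in pair 1 (0.221 and 0.709) and chr6:10523738-10523829 lower in pair 2 (0.725 and 0.102).

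Of 10 gene lists, 5 had no sparse region: markers of other cell types, genes methylated in cancers, lipid and cholesterol metabolism, hepatocyte function and DNA methylation machinery. These 5 lists held only 1 to 14 of all 3313 distinct regions each. Developmental transcription factors had 3, or 1.60% of the 188 distinct sparse regions, against 2.99% of all 3313 distinct regions. They were in FOXK1 (chr7:4715615-4715743, 0.0285 and 0.576 in pair 2), in BCL11B (mean difference 0.320 in pairs 1 and 2) and in HOXA3 and HOXA5. Ion channels and neuronal genes had 3 (1.60% against 3.23%), in KCNQ1, CACNA1H and, as a loss, KCNG2 (chr18:79798680-79798880, 0.517 and 0.282 in pair 3).

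Matrix and adhesion genes had 4 (2.13% against 1.39%): those of ADAMTS2, LAMC3, a laminin chain gene (chr9:131072737-131072860, 0.289 and 0.787 in pair 2), and FN1. Receptors and growth factors had 2, in FGF1 and IGF1R (1.06% against 1.21%). Imprinted genes had 2, in KCNQ1 (chr11:2726041-2726205, 0.0222 and 0.356 in pair 2) and TP73 (chr1:3734044-3734140, 0.0844 and 0.502 in pair 3) (1.06% against 0.573%). The median difference over all 188 distinct sparse regions was 0.367, against 0.227 over all 3313. With 2 to 4 sparse regions a list, nothing particular to a list follows from these counts.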

How the data were processed

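Methylation was measured by RRBS in 6 HepG2 libraries, 3 per group. The authors deposited 1 list of differentially methylated regions per pair, with the mean level of each library as a fraction, the count of CpG sites, and the difference and the caller's area as scores, per the file headers. A deposited summary gives read counts and mapping rates in percent (75.96 to 76.88). The build is hg38, per the submitters' processing notes. The sources used here give no aligner, caller, thresholds or coverage.

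The difference is overexpressing minus control. Density is the listed sites per 100 bp. Regions sharing at least 1 bp were merged across lists. Gene extents of 20056 protein-coding and 18330 lncRNA genes came from RefSeq (GRCh38.p14). Sparse and denser regions were compared over 3 pairs by an exact two-sided sign-flip permutation test, with Benjamini-Hochberg adjustment over 7 comparisons. For regions with levels in all 6 libraries the test was limma (version 3.58.1, under R 4.3.3) on logits, with an offset of 0.01 and a threshold of 0.05 on the adjusted p, checked on simulated data. The main fit used the group alone and not the replicate number. The SD given with the rise of a single region is that of its differences within pairs, so it is not the spread behind the limma p.

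The authors compared same-numbered libraries, so the numbers were taken as pairs. Same-numbered libraries also deviated together (correlations 0.393, 0.295 and 0.313, against -0.201 to -0.131 for different numbers). Both levels of a pair come from the same list, over its own boundaries and sites. The correlations therefore cannot show whether the libraries themselves were paired. Named regions were those with the largest differences in all 3 pairs and in each pair, losses in 2 pairs, extremes of density and length, those next to the threshold, genes with several sparse regions, members of 10 gene lists and overlaps with promoter windows. Other regions listed in 2 or 3 pairs were chosen after their values were seen. The regions and lists were chosen with earlier results of these data known.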

Additional observations from a re-analysis of the deposited data

How the results depend on the processing

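2 results kept their direction under all 11 alternatives run for each. They were the lower control level of sparse gains (-0.0835 to -0.0404) and the larger size of the difference at all sparse regions, gains and losses together (0.0946 to 0.191). The share near gene ends and the intergenic share, both compared only after seeing the data, did so under 12. In percentage points the first was -16.0 with gene ends taken as 2 kb and -0.9499 against regions of 5 to 10 sites per 100 bp. Those were its extremes, and the intergenic share ran from 3.602 to 14.6. The gain share, sparse minus denser, reversed to 0.677 with a threshold of 4 sites per 100 bp and to 3.66 with at least 6 sites, and ran from -9.50 to 2.51 when 1 pair was left out. Recurrence reversed to 8.92 with at least 6 sites, shrank to -1.56 with a threshold of 4 and reached -29.7 with the shortest and longest regions left out. The gene body share reversed to 3.45 with a threshold of 6 sites per 100 bp, to 0.446 with the shortest and longest regions left out of both sets, to 1.39 with at least 6 sites and to 3.26 with gene ends taken as 2 kb. It ran from -3.12 to 2.99 when 1 pair was left out. In 2 alternatives chosen after seeing the data it reversed to 1.91 (4 to 6 sites in both sets) and to 0.823 (without regions over 1000 bp). The cause of these reversals was not tested.

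With the replicate number as a block, limma called 20 of the 21 sparse regions higher, as without it, so the pairing changed no call among them. Over all 272 regions it moved the higher calls from 261 to 264. The count was 7 of 7 when overlap had to cover 50% of both regions and 2 when every entry had to be sparse, since fewer regions qualify. Leaving out 1 pair gave 19 to 21. Depth per region is unknown, which limits levels that rest on 4 sites.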
